A study of Rattus norvegicus with 64 samples.

Results

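The Toll-like receptor genes Tlr1 to Tlr9 and the adaptor gene Myd88 were followed in the blood of 64 rats in 5 treatment groups. The members were found by gene symbol in the per-rat tables of read counts. Of the 10 genes sought, 9 were listed, each in all 64 tables, among 17366 genes that every table listed and 26405 genes listed in any. Tlr1 was not analysed here. The surface receptors were Tlr2 (ENSRNOG00000009822), Tlr4 (ENSRNOG00000010522), Tlr5 (ENSRNOG00000022067) and Tlr6 (ENSRNOG00000002161). The endosomal receptors were Tlr3 (ENSRNOG00000021726), Tlr7 (ENSRNOG00000004249), Tlr8 (ENSRNOG00000045992) and Tlr9 (ENSRNOG00000048161). Myd88 was ENSRNOG00000013634.

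Toll-like receptors are sensors of microbial molecules on innate immune cells. The surface members bind cell-wall and flagellar components, while the endosomal members bind nucleic acids inside the cell. All of these receptors except TLR3 signal through the adaptor MYD88, which recruits IRAK kinases and leads to NF-kB activation. In blood, most of them are found on neutrophils, monocytes or B cells.

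All animals were male Sprague-Dawley rats, 85 to 90 days old, given 4 injections 2 h apart, and whole blood was taken by cardiac puncture 3 h after the last one. Control rats received saline at 22.5 °C (n = 6), Control cool rats received saline at 16 °C (n = 5) and EIH rats received saline in a 39 °C environment (n = 16), where EIH stands for environmentally induced hyperthermia. AMPH hot rats received amphetamine at 22.5 °C (n = 22, labelled hyperthermic), and AMPH normo rats received amphetamine at 16 °C (n = 15), which the label names Noromothermic. No rat carried a genetic change according to the labels, and each library came from 1 animal. Alpha and beta globin transcripts had been depleted before sequencing in every group.

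Counts per rat summed to between 19055615 and 40530319. Levels below are normalised counts, that is, counts divided by a DESeq2 size factor set over all 64 rats. A level can be compared between rats for 1 gene but not between genes, because transcript lengths were not used here. The tests left out 5 rats with more than 5000 counts of Mb, the muscle myoglobin gene, which left 59 rats, of which 4 were Control rats and 13 AMPH normo rats. Files fell into 14 project codes, given here by number, and a code held 1 or several groups. Control rats shared no code with EIH or Control cool rats, and all 5 Control cool rats had code 7 with 1 EIH, 1 AMPH hot and 1 AMPH normo rat. Comparisons among EIH, AMPH hot and AMPH normo used only rats of codes that held both groups, with the code as a term. AMPH hot was set against Control through the 8 AMPH hot rats whose identifiers, like those of all Control rats, end in W. These AMPH hot rats had codes 8, 9 and 13 and the Control rats codes 8 and 9. The main fit of this pair had no code term, and AMPH hot replicate 21 was the only rat of code 13. With the code as a term 0 genes were again called, while 2296 instead of 1335 had an unadjusted p under 0.05 by edgeR. The labelled tissue was checked against blood markers. Every listed T cell, B cell and platelet marker and Ptprc was above 0 in all rats. Some markers of other blood cells were not: the neutrophil markers Cxcr1 and Ltf were at 0 in 38 and 9 rats. The monocyte marker Cd163 was at 0 in 10 rats and the dendritic cell marker Batf3 in 3. Each of the 8 listed cardiac muscle markers was at 0 in at least 5 rats.

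Several libraries stood apart. AMPH hot replicate 17 had a neutrophil marker sum of 48942 normalised counts and Control replicate 19 one of 428937. The other 3 Control rats used in the tests had sums from 33302 to 187721, and the 8 AMPH hot rats of the same series had a median of 378479. AMPH hot replicate 21 had a neutrophil sum of 1004072, the highest of those 8 rats, and took 27.1% of its counts from haemoglobin genes. In EIH, 5 rats had a size factor under 0.6, against 0 Control and 0 Control cool rats, so low counts carried more error there.

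Changes were tested with edgeR's quasi-likelihood test over all genes that passed the count filter, with Benjamini-Hochberg adjustment, and a member was called at an adjusted p under 0.05. In AMPH normo against EIH, 4 of 9 members were called, all lower in AMPH normo, beside 12.5% of all genes tested (5.59% higher and 6.92% lower). In EIH against Control cool, 2 of 9 were called, both higher in EIH, beside 15.0% of all genes (8.41% higher and 6.58% lower). In AMPH hot against AMPH normo, 1 of 9 was called, higher in AMPH hot, beside 15.9% of all genes (7.95% higher and 7.96% lower).

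In the remaining comparisons 0 of 9 members were called. For EIH against Control, where 16.5% of all genes were called (7.11% higher and 9.37% lower), 2 members had an unadjusted p under 0.05 and DESeq2 called 1, beside 4626 of 12986 genes under that p and 3346 called by DESeq2. For AMPH hot against Control, where edgeR called 0% of genes, 3 members had an unadjusted p under 0.05 and DESeq2 called 0, beside 1335 of 12853 and 200 genes. In AMPH normo against Control cool (0.444% of genes called, 0.234% higher and 0.210% lower) these numbers were 2 and 0 members, beside 1927 of 12396 and 406 genes. Control cool against Control (0.00817%) gave 4 and 2 members, beside 3197 of 12238 and 1355 genes. AMPH hot against EIH (0.133%, 0.116% higher and 0.0166% lower) gave 1 and 0 members, beside 1595 of 12055 and 262 genes.

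**Figure D1:**
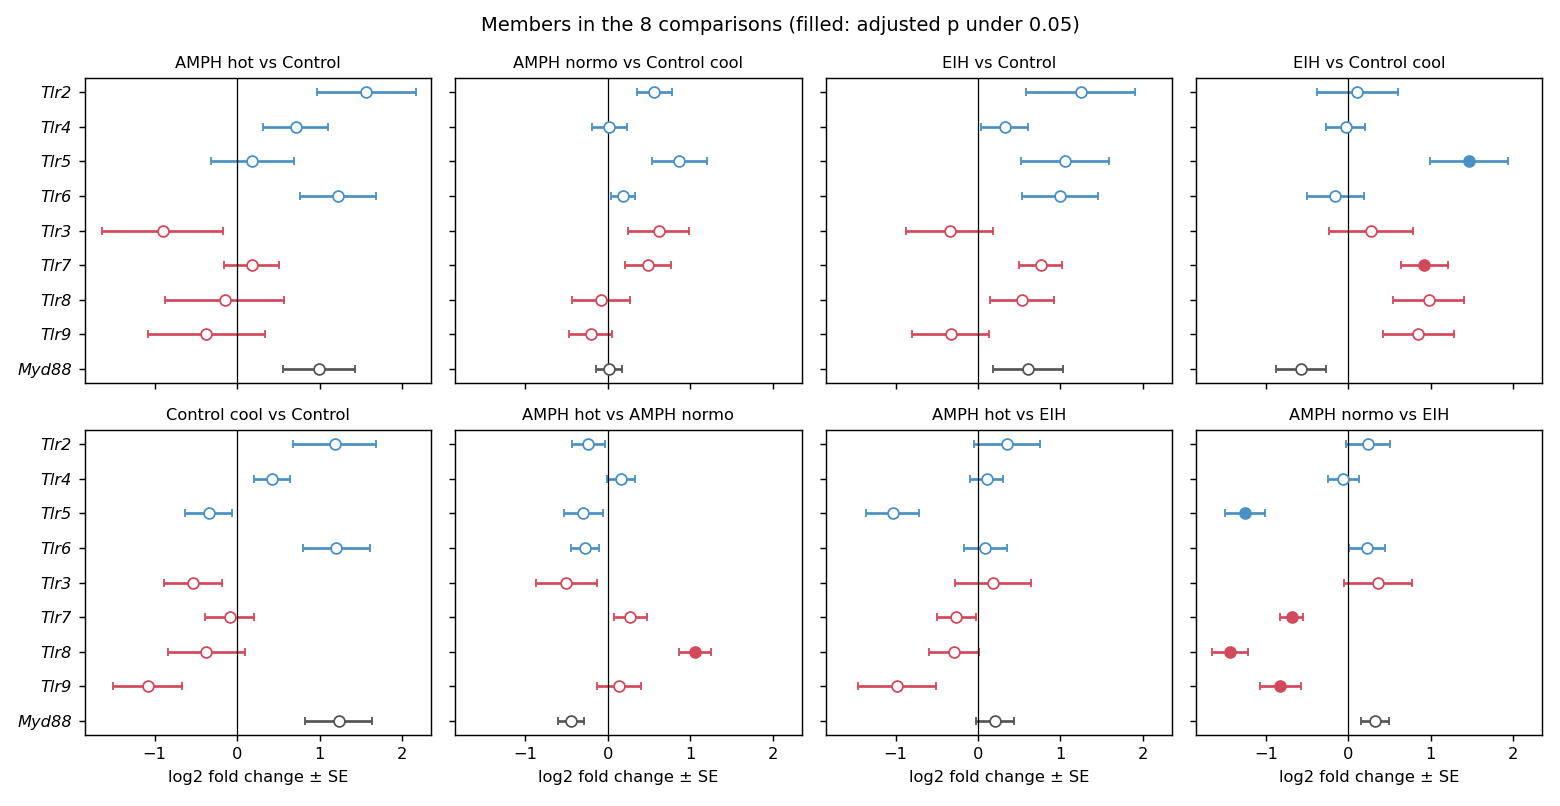
Log2 fold change (horizontal axis, with its standard error as the bar) of the 9 members in each of the 8 comparisons. Surface receptors are blue, endosomal receptors red and Myd88 grey, and filled symbols passed an adjusted p of 0.05: Tlr5, Tlr7, Tlr8 and Tlr9 in AMPH normo against EIH, Tlr8 in AMPH hot against AMPH normo, and Tlr5 and Tlr7 in EIH against Control cool.

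Endosomal receptors. Tlr8 differed between AMPH normo and EIH. In the 7 EIH rats of the 5 project codes shared with AMPH normo its level was 770 at the lowest, 1448 at the median and 1604 at the highest. In the 10 AMPH normo rats of those codes it was 259 at the lowest, 432 at the median and 868 at the highest. All 10 AMPH normo rats lay below the EIH median and 9 of them lay below every EIH rat. The log2 fold change of AMPH normo against EIH was -1.44 ± 0.22 (SE, adjusted p = 0.000599), or 0.37 of the EIH level. The mean difference was negative in each of the 5 codes, from -2.12 to -0.98 on the log2 scale. Tlr8 was called in all 29 alternatives run for this comparison.

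Tlr8 also differed between the amphetamine groups, whose ranges overlapped. In the 5 codes that hold both, the 10 AMPH hot rats lay between 431 and 1344 normalised counts (median 909). The 9 AMPH normo rats of those codes lay between 275 and 663 (median 387). All 10 AMPH hot rats were above the AMPH normo median and 8 were above every AMPH normo rat. Tlr8 had a log2 fold change of 1.06 ± 0.20 (SE, adjusted p = 0.00189), a 2.08-fold higher level in AMPH hot, and AMPH hot was higher in 5 of 5 codes. When all 22 AMPH hot rats and 13 AMPH normo rats entered without the project code, the log2 fold change was 0.69 and the call was lost (adjusted p = 0.124).

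Among saline rats Tlr8 spread widely in Control cool and EIH, but little in the 4 Control rats. The Control cool rats had 116, 228, 608, 641.5 and 922 normalised counts, so that 2 of 5 were low. The 4 Control rats had 558, 641, 689 and 758. EIH rats lay between 178 and 1604 (median 1054), and 10 of 15 were above every Control cool rat. The log2 fold change of EIH against Control cool, 0.97 ± 0.43 (SE, adjusted p = 0.131), did not pass the test. Neither did that of AMPH normo against Control cool, -0.08 ± 0.35 (SE, adjusted p = 0.932), or of AMPH hot against Control, -0.15 ± 0.72 (SE, adjusted p = 0.934).

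Tlr7, the neighbouring gene on the X chromosome and a sensor of single-stranded RNA, was also lower in AMPH normo than in EIH. In the shared codes the 7 EIH rats had 630 at the lowest, 1160 at the median and 1476 at the highest. The 10 AMPH normo rats had 423 at the lowest, 709.2 at the median and 1141 at the highest, and all 10 were below the EIH median. Tlr7 had a log2 fold change of -0.69 ± 0.14 (SE, adjusted p = 0.00476), and its mean was lower in AMPH normo in 5 of 5 codes. The call was lost when all 13 AMPH normo and 15 EIH rats entered without the code (-0.44, adjusted p = 0.0737) and when all 5 groups were fitted together with it (-0.59, adjusted p = 0.0595).

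Tlr7 was also called in EIH against Control cool. The Control cool rats had 277, 283, 603, 748 and 756 normalised counts, and 12 of 15 EIH rats were above all of them. Its log2 fold change was 0.92 ± 0.28 (SE, adjusted p = 0.0315). Against the 4 Control rats, which lay between 521 and 615, 13 of 15 EIH rats were higher, and the log2 fold change of 0.76 ± 0.26 (SE) had an adjusted p of 0.05001, just above the threshold. It was called in 6 of 14 alternatives, and was lowest, at 0.45 (adjusted p = 0.482), when all 5 groups were fitted with the project code. The call against Control cool was lost without Control cool replicate 1, 2 or 5 in turn (adjusted p from 0.0607 to 0.102), while the log2 fold change stayed between 0.77 and 1.09 without any 1 Control cool rat. Within code 7, the EIH rat had 1373 normalised counts, above all 5 Control cool rats.

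The stretch upstream of the start of Tlr7 and of Tlr8 is shown because these neighbours, with 0 coding genes between them, were both called lower in AMPH normo than in EIH. Both are 250 bases long, printed 5′ to 3′ on the + strand from RefSeq on build GRCr8, a later build than that of the counts. Capitals would mark matches to 5 motifs searched on both strands: GAANNTTC (heat shock element core), the interferon-stimulated element, the NF-kB motif, GAGGAAGT (PU.1) and TGANTCA (AP-1).
Tlr7, chrX:30644176-30644425: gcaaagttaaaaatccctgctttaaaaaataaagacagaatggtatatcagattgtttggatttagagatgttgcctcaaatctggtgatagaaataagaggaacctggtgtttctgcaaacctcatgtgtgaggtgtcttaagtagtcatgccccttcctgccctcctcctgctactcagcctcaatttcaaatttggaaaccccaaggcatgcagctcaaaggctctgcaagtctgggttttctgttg
Tlr8, chrX:30708476-30708725: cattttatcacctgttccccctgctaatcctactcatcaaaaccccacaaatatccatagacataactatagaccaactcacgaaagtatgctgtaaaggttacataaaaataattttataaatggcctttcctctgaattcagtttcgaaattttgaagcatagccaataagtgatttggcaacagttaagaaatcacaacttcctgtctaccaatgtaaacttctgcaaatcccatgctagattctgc
Both windows held 0 matches. Among 33469 rat windows of this length, 7.23% held the first motif, 3.41% the second, 42.3% the third, 2.04% the fourth and 6.34% the fifth.

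Tlr9, the receptor for unmethylated DNA, was read at low counts throughout. In the shared codes the 7 EIH rats had 19.5 at the lowest, 31.1 at the median and 103 at the highest normalised count. The 10 AMPH normo rats had 12.0 at the lowest, 22.4 at the median and 32.7 at the highest, and 9 of them were at or below the EIH median. Tlr9 had a log2 fold change of -0.82 ± 0.25 (SE, adjusted p = 0.0436). This call was lost in 12 of 17 fits that left out 1 rat, with adjusted p up to 0.113. The rats were EIH replicates 1, 2, 4 and 14 and AMPH normo replicates 1, 3, 5, 6, 7, 8, 13 and 14.

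By median Tlr9 was highest in the Control rats, which had 18.6, 53.8, 67.2 and 96.3 normalised counts. The Control cool rats had 15.6, 17.9, 32.7, 33.9 and 34.0. Control replicate 19, the rat with the high neutrophil sum, was the low Control rat. The log2 fold change of Control cool against Control was -1.09 ± 0.41 (SE, adjusted p = 0.142), and -1.36 with an adjusted p of 0.0209 without that rat. It turned to 0.21 (adjusted p = 0.963) when all 5 groups were fitted together with the project code.

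Tlr3, the receptor for double-stranded RNA, was barely read. Its highest level in the 59 rats was 39.3 normalised counts, its group medians lay between 11.3 and 18.0, and it was at 0 in at least 1 EIH rat and 1 AMPH hot rat. It was not called in any of the 8 comparisons, where its log2 fold changes ran from -0.91 to 0.62 with standard errors between 0.35 and 0.73.

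**Figure D2:**
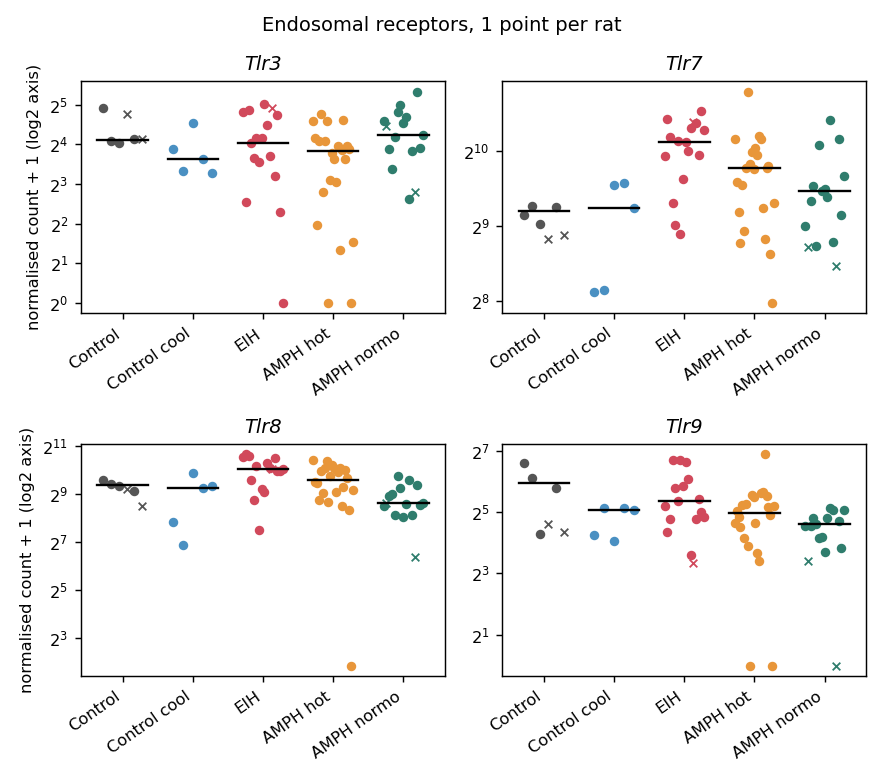
Normalised count plus 1 (vertical log2 axis) of the 4 endosomal receptors in all 64 rats by group, 1 point per rat. Crosses are the 5 rats with more than 5000 Mb counts, and the black line is the median of the other rats of the group. Tlr8 had its highest median in EIH (1054) and its lowest in AMPH normo (387), and 1 AMPH hot rat lay at 2.62.

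**Figure D3:**
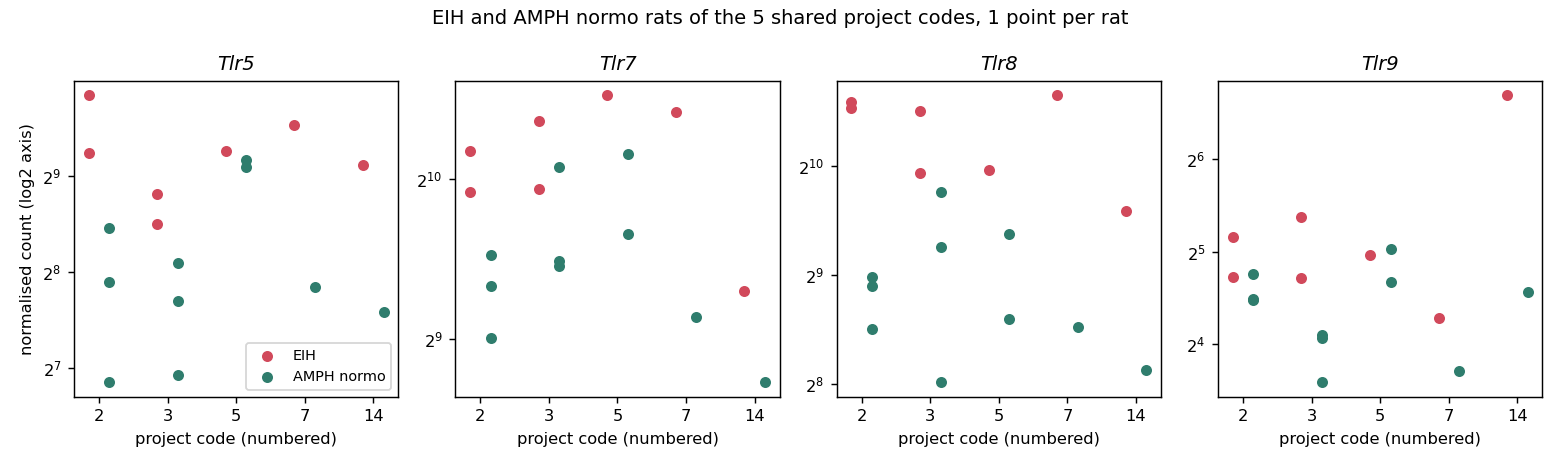
Normalised counts (vertical log2 axis) of Tlr5, Tlr7, Tlr8 and Tlr9 in the EIH (red) and AMPH normo (green) rats used in their comparison, set side by side within each of the 5 shared project codes. The mean of AMPH normo was below that of EIH in 5 of 5 codes for each of these genes.

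Surface receptors. Tlr5, which binds bacterial flagellin, was the surface member that was called, and its group median was highest in EIH. Not every EIH rat was high: the 15 rats used ran from 56.8 to 912 (median 411). The 5 EIH rats of code 10, a code without AMPH normo rats, had a mean log2 level of 7.34. In the shared codes the 7 EIH rats had 361 at the lowest, 604 at the median and 912 at the highest. The 10 AMPH normo rats had 115 at the lowest, 234 at the median and 572 at the highest, and 8 of them were below every EIH rat. Tlr5 had a log2 fold change of -1.25 ± 0.24 (SE, adjusted p = 0.0036), and its mean was lower in AMPH normo in 5 of 5 codes. With all 13 AMPH normo and 15 EIH rats and no project code it was -0.60 (adjusted p = 0.163), and the call was lost.

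Control cool rats had 101, 154, 159, 163 and 200.5 normalised counts of Tlr5. Of 15 EIH rats, 12 were above all of them and 2 below all of them. The log2 fold change of EIH against Control cool was 1.46 ± 0.47 (SE, adjusted p = 0.0411). Leaving out any 1 of the 5 Control cool rats lost this call (adjusted p from 0.0742 to 0.106), while the log2 fold change stayed between 1.36 and 1.58. Within code 7, the EIH rat had 737 normalised counts. In AMPH hot against EIH, Tlr5 had a log2 fold change of -1.03 ± 0.32 (SE) with an adjusted p of 0.188, and 8 of 13 EIH rats were above every AMPH hot rat. It was called there when the project code holding most EIH rats was left out (-1.30, adjusted p = 0.0498).

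Tlr2 and Tlr6, whose proteins pair to recognise bacterial lipopeptides, were high or low in much the same rats. Tlr2 had 864, 1071, 3009 and 5567 normalised counts in the 4 Control rats. It had 4200.3, 5748, 6315, 6466 and 7035 in the Control cool rats. The 8 AMPH hot rats with identifiers ending in W had 1118 at the lowest, 8874 at the median and 12389 at the highest, and 7 of 8 were above every Control rat. The exceptions were the libraries that stood apart: AMPH hot replicate 17 at 1118 and Control replicate 19 at 5567.

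For Tlr2 the log2 fold change of AMPH hot against Control was 1.56 ± 0.60 (SE, adjusted p = 0.434), and for Tlr6 it was 1.22 ± 0.46 (SE, adjusted p = 0.431). Neither passed the test. Without both AMPH hot replicate 17 and Control replicate 19 the values were 2.42 (adjusted p = 0.0191) and 1.97 (adjusted p = 0.0117), with both past the threshold, as was Myd88. In that fit 427 of 13024 genes were called, 383 of them higher. These were the lowest of the 8 AMPH hot rats and the highest of the 4 Control rats in Tlr2, set aside with earlier results of these data known, so these p-values are a description. Without any single rat neither gene was called (12 fits, lowest adjusted p 0.101).

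Control replicate 19 had the same weight in Control cool against Control. With all rats the log2 fold changes were 1.18 ± 0.51 for Tlr2 and 1.1998 ± 0.41 for Tlr6 (SE, adjusted p = 0.173 and 0.115). Without that rat they were 1.91 and 1.84 (adjusted p = 0.0152 and 0.00419), 5 members were called, and 2096 genes in all. With all 5 groups and the project code in 1 fit they were 0.61 and 1.08 (adjusted p = 0.862 and 0.613). No project code held both of these groups, so code and environment cannot be told apart.

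EIH rats spread widely in Tlr2, from 910 to 12835 with a median of 6214. The lowest were EIH replicates 7 and 9, at 910 and 952, and replicates 4, 5, 6 and 8 lay between 2598 and 3396. Each of the remaining EIH rats was at 4131 or above. Against Control, the Tlr2 log2 fold change was 1.25 ± 0.66 (SE, adjusted p = 0.179), and against Control cool it was 0.11 ± 0.49 (SE, adjusted p = 0.899).

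The highest Tlr2 and Tlr6 medians were those of AMPH normo rats, 10109 and 3481 normalised counts, and the lowest those of Control rats, 2040 and 1026. Of 13 AMPH normo rats, 10 were above every Control cool rat in Tlr2 and 9 in Tlr5. Their log2 fold changes against Control cool, 0.57 ± 0.21 and 0.87 ± 0.34 (SE, adjusted p = 0.207 and 0.218), did not pass the test. Tlr6 had 566, 857, 1195 and 2629 normalised counts in the Control rats, of which 2629 was replicate 19. It had 2390.1, 2765, 2828, 2955 and 4074 in the Control cool rats, so that the groups overlapped through that 1 Control rat.

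Tlr4, the lipopolysaccharide receptor, was not called in any comparison. Its group medians lay between 265 (Control) and 366 (AMPH hot) normalised counts, and every group overlapped every other. Its log2 fold changes in the 8 comparisons ran from -0.06 to 0.71. It was called in 1 alternative, Control cool against Control without Control replicate 19 (0.66, adjusted p = 0.0452). In Tlr6, neighbour of Tlr1 on chromosome 14, reads of that close relative could be counted in part, which was not tested.

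**Figure D4:**
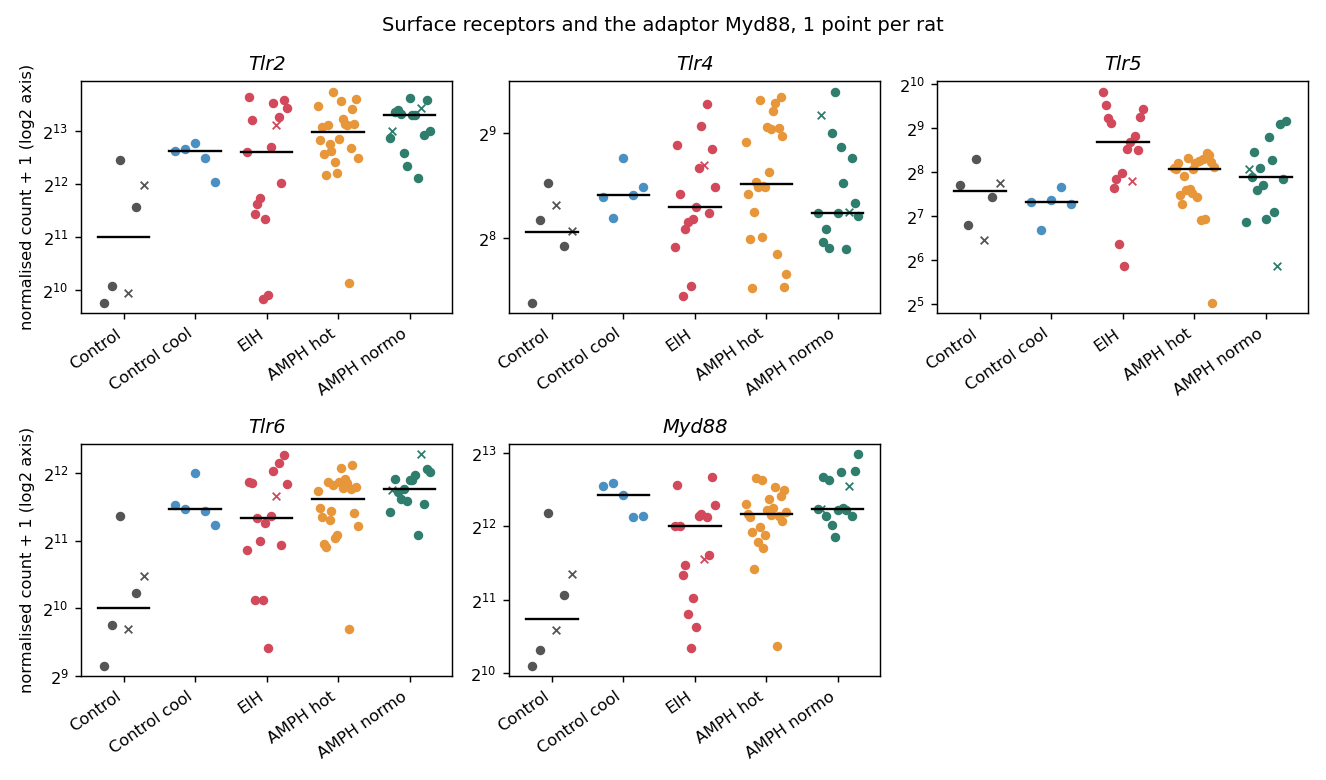
Normalised count plus 1 (vertical log2 axis) of the 4 surface receptors and Myd88 in all 64 rats by group, drawn as for the endosomal receptors. Tlr2 medians were 2040 in Control, 6315 in Control cool, 6214 in EIH, 8029 in AMPH hot and 10109 in AMPH normo, with 1 Control rat at 5567 and 1 AMPH hot rat at 1118.

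The adaptor. Myd88 had 1094, 1268, 2146 and 4634 normalised counts in the 4 Control rats. It had 4494, 4514, 5501, 6012 and 6183 in the Control cool rats. The highest Control value was again replicate 19. The log2 fold change of Control cool against Control was 1.23 ± 0.41 (SE, adjusted p = 0.109) and 1.89 without that rat (adjusted p = 0.00354).

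Between amphetamine groups Myd88 went the other way from Tlr8. In 10 AMPH hot rats it lay between 2737 and 6473 (median 4513), and in 9 AMPH normo rats between 4502 and 8117 (median 6385). Myd88 had a log2 fold change of -0.44 ± 0.16 (SE, adjusted p = 0.0653), and its mean was lower in AMPH hot in 5 of 5 codes. DESeq2 called it (adjusted p = 0.0388), and so did the fits without the project code and without AMPH hot replicate 6 or AMPH normo replicate 4 or 13, which makes 5 of 30 alternatives. Elsewhere the log2 fold change came as near to 0 as -0.26, with all rats of both groups and no code, and the adjusted p reached 0.449 in the joint fit with the code.

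Tlr2 and Myd88 are shown upstream of their starts, as the members whose windows held the most matches. Both are 250 bases on the - strand of GRCr8, printed 5′ to 3′ on that strand, with capitals for matches to the 5 motifs above.
Tlr2, chr2:171504558-171504807: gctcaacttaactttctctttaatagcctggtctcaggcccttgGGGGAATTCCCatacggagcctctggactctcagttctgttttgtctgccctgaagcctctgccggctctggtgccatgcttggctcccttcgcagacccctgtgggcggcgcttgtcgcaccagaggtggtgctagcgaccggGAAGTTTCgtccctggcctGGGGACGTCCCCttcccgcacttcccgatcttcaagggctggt
Myd88, chr8:127956231-127956480: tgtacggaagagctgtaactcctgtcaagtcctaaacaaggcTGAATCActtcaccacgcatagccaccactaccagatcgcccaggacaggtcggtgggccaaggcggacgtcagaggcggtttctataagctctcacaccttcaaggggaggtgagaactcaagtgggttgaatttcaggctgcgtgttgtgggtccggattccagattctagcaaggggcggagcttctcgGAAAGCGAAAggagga
Tlr2 held 1 match to GAANNTTC and 5 matches to the NF-kB motif, which overlap in 2 clusters. Myd88 held 1 match to the interferon-stimulated element and 1 to TGANTCA. In the other windows, Tlr3 held 1 match to the NF-kB motif, Tlr9 held 1 to TGANTCA, and Tlr4, Tlr5 and Tlr6 held 0. A match is a description of the letters only.

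Surface against endosomal receptors. In AMPH normo against EIH the median log2 fold change of the 4 surface receptors was 0.08 and that of the 4 endosomal receptors -0.76, beside -0.01 over all genes. The endosomal median was below 0 in 30 of 30 settings and the surface median above 0 in 27 of 30. These settings reuse mostly the same rats, 17 of them leaving out 1 rat each, so they are not separate checks. For EIH against Control cool the medians were 0.04 and 0.89, beside 0.07 over all genes. They were -0.25 and 0.21 in AMPH hot against AMPH normo and 0.10 and -0.28 in AMPH hot against EIH. In AMPH normo against Control cool they were 0.38 and 0.20. Both were above 0 there, as in EIH against Control cool and in EIH against Control.

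Against Control the medians were 0.96 for surface and -0.27 for endosomal receptors in AMPH hot, 1.02 and 0.10 in EIH, and 0.80 and -0.46 in Control cool. These 3 comparisons share the 4 Control rats. The classes were not uniform, since Tlr5 lay with the endosomal receptors in AMPH normo against EIH and Tlr3 lay apart from them at 0.36.

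Per rat, the mean log2 level of each class was set against the mean of all 6 Control rats. The surface mean had a median of 0.83 in Control cool, 1.17 in EIH, 1.16 in AMPH hot and 1.23 in AMPH normo. The endosomal mean had a median of -0.24, 0.24, -0.0061 and -0.30 in these groups. Endosomal minus surface was above 0 in 2 of 4 Control, 3 of 15 EIH, 1 of 22 AMPH hot, 0 of 5 Control cool and 0 of 13 AMPH normo rats. Control rats lie around 0 here by construction, and the counts of all groups rest on the same 6 reference rats. In the endosomal mean the low-count Tlr3 and Tlr9 weigh as much as Tlr7 and Tlr8.

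The amphetamine effects at the 2 temperatures were also compared directly. The test of the effect at 22.5 °C minus that at 16 °C, with all 59 rats and the project code, called 0 of 9 members by edgeR, 0 at an unadjusted p under 0.05 and 0 by DESeq2. It called 0 of 14000 genes (0%), of which 1034 had an unadjusted p under 0.05, and DESeq2 called 51. The member values ran from -1.58 ± 0.95 (SE) for Tlr3 to 0.90 ± 0.58 (SE) for Tlr6, with 0.07 ± 0.67 (SE) for Tlr8.

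Members beside one another. Over 59 rats the ranks of Tlr2 and Tlr6 had a Spearman correlation of 0.85, those of Tlr6 and Myd88 0.79, those of Tlr2 and Myd88 0.78 and those of Tlr7 and Tlr8 0.78. No other pair was above 0.6. Tlr9 had negative correlations with Tlr2, Tlr6 and Myd88, of -0.67, -0.62 and -0.59. After project code means were subtracted the positive values above became, in the order given, 0.91, 0.86, 0.85 and 0.84. The negative ones became -0.72, -0.68 and -0.65. The points share libraries and size factors, and the values are descriptions with no test.

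The 3 genes most like each member, among 8050 with a mean of at least 100 normalised counts, were given by the same measure. For Tlr2 they were Trem1, a neutrophil and monocyte activating receptor, Sqrdl and Snx18 (0.90, 0.89 and 0.88). For Tlr8 they were Cybb, the catalytic subunit of the phagocyte NADPH oxidase, Tlr7 and Hps3 (0.85, 0.78 and 0.76). For Tlr7 they were St8sia4, Cybb and Vps35 (0.86, 0.81 and 0.81). For Tlr9 the first was Cd22, a B cell surface lectin (0.80), then Hivep2 and Myo1e (both 0.77).

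For Tlr6 they were Fbxl5, Akirin1 and Gnai3 (0.90, 0.87 and 0.85), for Myd88 Nudt9, Orai1 and Dgat2 (0.91, 0.89 and 0.88), and for Tlr5 Phactr2, Slc6a6 and Aim1 (0.83, 0.80 and 0.80). Tlr4 had weaker likenesses, with CR1L, Rpe and Tmx1 (0.74, 0.74 and 0.73). Tlr3 had the weakest, with Med1, Slc25a36l1 and Kcnab2 (0.61, 0.61 and 0.56).

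Cell type markers beside the members. In bulk blood, fewer cells of a type and less RNA per cell cannot be told apart. In AMPH normo against EIH, 3 of the 7 monocyte markers reported here were called, all lower in AMPH normo: Cx3cr1 (-1.09 ± 0.24), Csf1r, the macrophage growth factor receptor (-0.87 ± 0.15), and Cd68 (-0.82 ± 0.19). Of the other 4, Cd163 lay at 1.87 ± 0.82 (adjusted p = 0.162), Ccr1 at 0.01, Itgax at -0.36 and Cd14 at -0.69. The monocyte marker sum was 9119 to 27527 normalised counts in the 7 EIH rats and 9195 to 16565 in the 10 AMPH normo rats. Of 11 neutrophil markers 9 were tested, of which S100a8 and S100a9 were higher and Ngp lower in AMPH normo. Of 6 B cell markers 1 was called, Cd22 (-0.64 ± 0.19), and of 5 natural killer cell markers 1 was called higher. Of all genes, 12.5% were called in this comparison. The part of these cells in the receptor differences was not tested.

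In AMPH hot against AMPH normo the monocyte markers Cd14, Cd68 and Csf1r were called higher in AMPH hot, 3 of the 7 reported, and the other 4 lay between -0.81 (Cd163) and 0.21 (Cx3cr1). The platelet marker Ppbp, 1 of 7, was also called higher there. Those called lower included 3 of 8 erythroid markers (Hba-a2, Hba2 and Slc4a1) and the natural killer cell marker Ncr1, 1 of 5. The neutrophil marker Cxcr2, 1 of 9 tested, and the dendritic cell marker Xcr1, 1 of 5 tested, were lower too. Their classes did not move as 1: the 9 neutrophil markers ran from -0.67 to 0.43. The 5 dendritic cell markers ran from -0.97 to 0.61, with a median of 0.28. In EIH against Control cool, beside 15.0% of all genes, Cd14 and Itgax were called higher. So were 3 of 6 dendritic cell and 2 of 7 platelet markers. Lower were 3 of 9 tested neutrophil markers, S100a8, S100a9 and Camp, with 2 of 10 T cell and 2 of 5 natural killer cell markers. The log2 fold changes of the 9 neutrophil markers ran from -2.14 to 0.79. Between EIH and Control, beside 16.5% of all genes, 10 of 10 T cell markers and 4 of 5 natural killer cell markers were lower in EIH. Higher there were 6 of 7 platelet, 1 of 9 neutrophil and 1 of 6 dendritic cell markers. Neutrophil sums rest mainly on S100a9 and S100a8, with medians of 180314 and 81342 normalised counts over all rats. The next marker, Csf3r, had 22307. These sums were 60531 to 330370 in EIH and 358128 to 812592 in Control cool, with no overlap. In the Control rats used they ran from 33302 to 428937. Their part in the Tlr2, Tlr6 and Myd88 values was not tested.

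**Figure D5:**
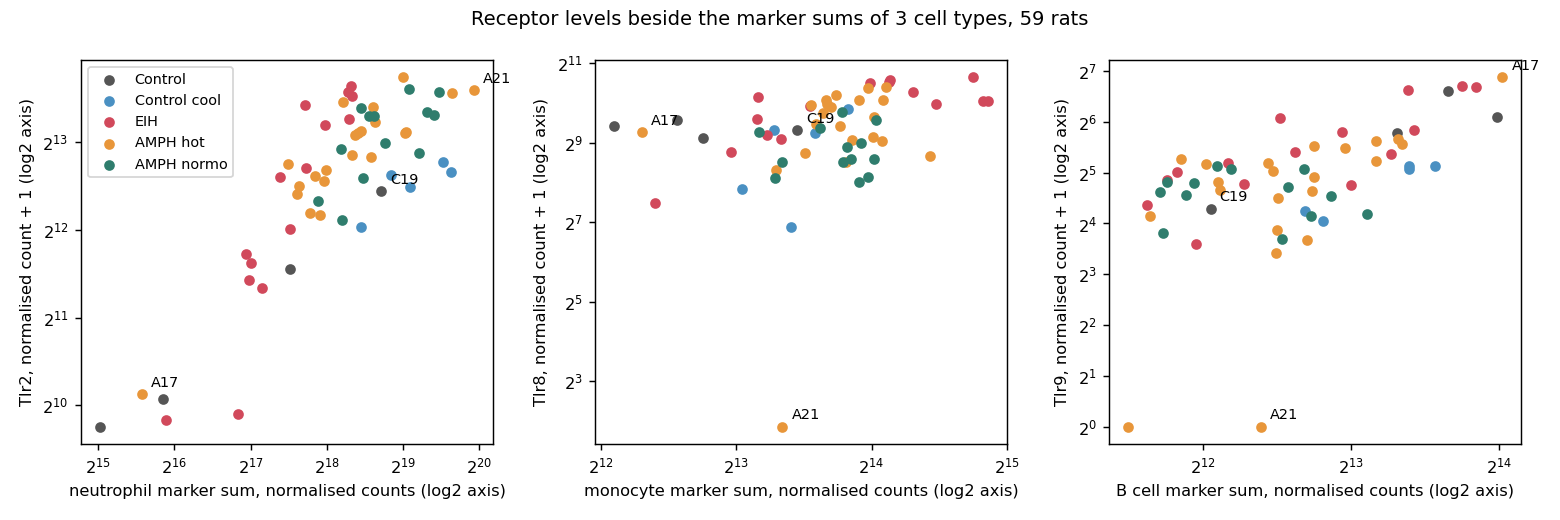
Levels of Tlr2, Tlr8 and Tlr9 (vertical axes, normalised count plus 1) against the marker sums of neutrophils, monocytes and B cells (horizontal axes), both on log2 scales, for 59 rats coloured by group. C19, A17 and A21 mark Control replicate 19 and AMPH hot replicates 17 and 21. A17 lay at 1118 for Tlr2 with a neutrophil sum of 48942, and A21 lay at 2.62 for Tlr8.

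The rest of the pathway. Of 42 listed genes for adaptors, co-receptors, chaperones, kinases, transcription factors, inhibitors and other receptors, 38 were tested in AMPH normo against EIH, and 1 was higher and 5 lower, where 12.5% of all genes were called. The largest changes were in Tnfaip3, an NF-kB inhibitor (-0.90 ± 0.19, adjusted p = 0.00602), Cd36, a co-receptor (0.87 ± 0.22, adjusted p = 0.0157), the kinase Irak2 (-0.84 ± 0.20, adjusted p = 0.0118) and the transcription factor Irf5 (-0.70 ± 0.14, adjusted p = 0.00347). By class these 6 were 1 of 6 co-receptors, 3 of 14 kinases and ligases, 1 of 5 transcription factors and 1 of 5 inhibitors.

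Between AMPH hot and AMPH normo 4 pathway genes were higher and 2 lower of 38 tested, beside 15.9% of all genes. The largest were Hsp90b1, the chaperone of the receptors (1.10 ± 0.16, adjusted p = 0.00023), Cd36 (-1.05 ± 0.17, adjusted p = 0.00062), the lipopolysaccharide co-receptor Cd14 (0.76 ± 0.25, adjusted p = 0.0475) and the adaptor Ticam2 (0.59 ± 0.16, adjusted p = 0.0201). The others were Irak3, higher, and Tlr10, lower.

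In EIH against Control cool, with 15.0% of all genes called, 5 were higher and 3 lower of 39 tested, led by Cd14 (2.41 ± 0.76, adjusted p = 0.0349), the receptor inhibitor Sigirr (-1.18 ± 0.36, adjusted p = 0.0322), Irak2 (1.15 ± 0.38, adjusted p = 0.0425) and the ligase Traf6 (0.82 ± 0.20, adjusted p = 0.0104). The others were Tbk1 and Ikbkg, higher, and Nfkbia and Chuk, lower. Against Control, with 16.5% of all genes called, 0 were higher in EIH and 2 lower of 41, Sigirr (-1.60 ± 0.40, adjusted p = 0.0153) and Cd180 (-0.98 ± 0.28, adjusted p = 0.0264). In the other 4 comparisons edgeR called 0 pathway genes.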

How the data were processed

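RNA from globin-depleted rat whole blood was sequenced in 64 animals. The authors clipped reads with fastq-mcf, aligned them with Bowtie 0.12.9 to the Ensembl transcriptome of rn5 and deposited RSEM 1.2.0 expected counts per gene, 1 table per rat. Libraries kept strand, but RSEM was run with its default settings, which do not use strand, so reads of antisense partners may not be separated. Expected counts were rounded to whole numbers. Genes listed in every table of a fit with at least 10 counts in as many rats as the smaller group were tested with edgeR 4.0.16 (quasi-likelihood, TMM; R 4.3.3), with Benjamini-Hochberg adjustment over all genes tested. DESeq2 1.42.0 was the alternative test. The study's Mb criterion (over 5000 counts) was applied to every group. The first part of each file's name was taken as its project code.

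Totals ran from 19055615 to 40530319 counts, and error is largest for genes with few counts, such as Tlr3 and Tlr9. Libraries are 1 per animal, and no 2 of a group were alike within sampling noise (lowest chi-square per gene 53.4). The members and lists were chosen with earlier results of these data known. The named genes were the 9 members, up to 4 called pathway genes with the largest change per comparison, and the 3 genes most like each member by Spearman correlation of log2(normalised count + 1). Other genes were named after their values were seen. Alternatives were other size factors, DESeq2, no filter, no haemoglobin genes, all rats, joint fits, the project code or replicate number as a term, and leaving out rats. Scripts were tested on simulated data. Promoter sequences came from RefSeq (GRCr8), which matched 9 of 9 members. A monocyte marker is not reported here.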

Additional observations from a re-analysis of the deposited data

Results flagged for a closer look

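Among 27 pairs of a member and a group of 4 to 10 rats, 6 held a rat far from the others by Dixon's criterion, which chance meets in about 1 in 20 groups. All 6 were in the 8 AMPH hot rats with identifiers ending in W. In AMPH hot replicate 17, Tlr2 was 1118.3 normalised counts (5785.7 to 12388.8 in the other rats), Tlr6 was 822.4 (2384.9 to 4460.6) and Myd88 was 1317.5 (4331 to 5931.6). In AMPH hot replicate 21, Tlr5 was 31.4 (119.3 to 344.6), Tlr8 was 2.615 (317.4 to 1069.5) and Tlr9 was 0 (29.2 to 116.7). The marker sums of these rats stand beside the members' values above, and their part in these values was not tested.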

How the results depend on the processing

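No call changed sign. In AMPH hot against Control, 0 members became 3 in a fit of all 5 groups without the project code, 2 with all 22 AMPH hot rats and 3 without both AMPH hot replicate 17 and Control replicate 19. All genes called there rose from 0 to 200 (DESeq2), 804 (all 22 rats) and 1825 (all 5 groups). In EIH against Control, 0 became 1 with DESeq2 size factors, with DESeq2, without haemoglobin genes and without rats of size factor under 0.6, and 2 with all rats whatever their Mb count (4351 of 12811 genes), in the fit of all 5 groups without the project code (3673 of 14000) and without the code holding most EIH rats (2220 of 12665). Leaving out 1 rat gave 0 to 1, the 1 being Tlr6 without Control replicate 19. In EIH against Control cool, 2 became 1 with no filter, with all 5 groups and the project code, and without rats of low size factor, and 0 to 1 without 1 Control cool rat. In Control cool against Control, 0 became 2 with DESeq2 and 0 to 5 without 1 rat, where DESeq2 called 1355 genes. In AMPH hot against AMPH normo, 1 became 2 with DESeq2 and without the project term, 0 with all rats of both groups and no project term, and 1 to 2 without 1 rat. In AMPH hot against EIH, 0 became 1 in the joint fit with the project code, with all rats of both groups and no project term, and without the code holding most EIH rats, where DESeq2 called 262 genes over all. In AMPH normo against EIH, 4 became 2 in the joint fit with the project code, and 3 to 4 without 1 rat. With all rats of both groups and no project term Tlr5 and Tlr7 were lost and Myd88 was called. Tlr9 lost its call in 17 of 29 alternatives. AMPH normo against Control cool gave 0 in all 15 alternatives, with 406 genes by DESeq2. The difference of amphetamine effects gave 0 in all 16. The cause was not tested. Deviations of same-numbered rats had correlations from -0.22 to 0.53. In AMPH hot against Control 3 of 4 pairs were over 0.1 (median 0.19), so a pairing there cannot be told from these values. Elsewhere the medians lay between -0.091 and -0.0062. The numbers were not treated as pairs. With a replicate block AMPH hot against Control, with 4 rats in each group, had 0 genes called, as it had without the number as a term. With a replicate block, 1 member was called in EIH against Control cool (Tlr5) and 1 in AMPH normo against EIH (Tlr8), and the same rats without the number as a term also gave 1 and 1. Alternatives that left out a project code, rats of low size factor or single rats of comparisons between hot, normo and EIH groups were chosen after seeing the data. Depth limits Tlr3 and Tlr9.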
